A study of Mus musculus with 12 samples.

Results

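The 9 genes described here, Slc7a5, Slc3a2, Slc1a5, Slc38a1, Slc38a2, Slc7a6, Rptor, Rheb and Myc, encode amino acid carriers, parts of the amino acid-sensing kinase complex mTORC1 and the growth regulator MYC. They were chosen by name and make up 9 of the 55453 genes in the count table, of which 29806 had at least 1 read and 12411 had enough reads to be tested. RNA sequencing had been done on regulatory T (Treg) cells, the Foxp3-expressing T cells that restrain immune responses, in mice with or without CNS4, a conserved noncoding sequence of the Foxp3 gene. The cells were isolated by flow sorting as CD4+Foxp3+ cells from C57BL/6 mice and were lysed without any treatment.

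Each of the 4 groups held 3 libraries, 12 in all. Male controls carried floxed CNS4 (labelled wild type, here male FL, replicates 1, 2 and 4), and males of the second group were CNS4 knockout (male KO, replicates 1, 2 and 3). Female controls were labelled floxed heterozygotes (female FL) and the other females knockout heterozygotes (female KO). The labels did not give the second allele of the females, how the deletion was made, or the ages, beyond stating that mice were matched for age and sex. Only females were labelled heterozygotes, so sex and zygosity cannot be told apart in any comparison between males and females. Results given over both sexes are the mean of the male and the female contrast. The titles contained the letters Thy, and the organ was not otherwise named. Nothing stated that libraries came from separate animals, so p-values measure only the spread between these libraries, which may be technical.

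SLC7A5 and its heavy chain partner SLC3A2 form the exchanger that brings leucine and other large neutral amino acids into activated T cells, while SLC1A5, SLC38A1 and SLC38A2 carry glutamine and other small neutral amino acids, and SLC7A6 is another light chain that pairs with SLC3A2. Amino acids lead the Rag GTPases to recruit mTORC1 to the lysosome through its subunit raptor (Rptor), where the GTPase RHEB switches the kinase on. MYC is made after T cell receptor and interleukin-2 signals and raises transcription of transporter and ribosome biogenesis genes, and mTORC1 activity is needed for Treg cell function.

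The libraries held between 12423335 and 30244505 reads in genes, with a median of 14596845. Genes of the minus strand held only 2.81 to 4.16% of the reads of protein-coding genes in a library, and 5 of the 9 genes lie on that strand (Slc7a5, Slc3a2, Slc38a1, Slc38a2 and Rheb). Their levels here cannot be set against those of Slc1a5, Slc7a6, Rptor and Myc. The plus-strand genes that define the sorted cells were abundant, with Foxp3 at 685 to 2675, Il2ra at 1904 to 3163 and Cd3d at 776 to 1218 CPM (counts scaled to the size of the library) over the 12 libraries, whereas the minus-strand Cd4 lay at 4.76 to 11.95 CPM. On the first principal component, which held 49.8% of the variance, female KO 1 and female KO 3 stood apart from the other libraries (scores of 98.9 and 93.4), and male KO 3 and male FL 2 lay at the other end (-72.9 and -68.8). Summed markers of myeloid and dendritic cells, 18 genes with none at 0 in all libraries, ranged from 106 to 1648 CPM in male FL, 231 to 1767 in male KO, 268 to 1111 in female FL and 822 to 1622 in female KO. Of 7 thymic epithelial markers, 3 minus-strand genes (Foxn1, Krt5 and Cldn4) were at 0 in every library, while the plus-strand Epcam reached 45.0 and Psmb11 43.4 CPM. The 7 summed to 52.5 CPM in female KO 3 and 46.9 in male KO 3, beside 3.26 to 26.6 CPM in the other libraries. Markers of double-positive (CD4 and CD8) thymocytes, 9 genes, summed to 762 CPM in female KO 3, beside 208 to 474 in the other libraries. B cell, erythroid and NK-like markers summed to at most 67.0, 33.3 and 26.0 CPM in any library. The part of the epithelial, thymocyte, B cell, erythroid and NK-like markers in the results was not tested. With the myeloid marker level as a covariate, edgeR again called 0 of the 8 testable genes in every comparison, and 250 in place of 411 of all genes over both sexes. In such bulk samples, fewer cells of a type and less RNA per cell cannot be told apart.

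None of the 8 genes that could be tested was called in any comparison by the quasi-likelihood test of edgeR, with p-values adjusted after Benjamini and Hochberg over all 12411 genes, and 0 of the 8 had an unadjusted p under 0.05. Of all genes tested, 20.2% had such a p over both sexes, 8.12% in males, 19.2% in females, 2.73% for the difference between the sexes and 6.14% between the floxed groups. Over both sexes 3.31% of all genes tested were called (2.68% higher and 0.637% lower in knockout cells), in males 0.0242% and in females 0.201%. For the difference of the knockout effect between the sexes 0% were called, and for floxed females against floxed males 0.0322%. DESeq2 also called 0 of the 8 in every comparison, with 1 gene at an unadjusted p under 0.05 over both sexes, 1 in females and 1 between floxed females and floxed males. Its share of all genes called was 9.1% over both sexes, 1.89% in males, 5.69% in females, 0% for the difference between the sexes and 0.475% between the floxed groups. The limma-voom fit with quality weights, which gives less weight to libraries that fit their group poorly, called 4 of the 8 lower over both sexes, 3 lower in females, 0 in males and 0 between the floxed groups, and 2 for the difference between the sexes. That fit called 37.5% of all genes over both sexes, 44% in females, 1.43% in males, 0.0725% between the floxed groups and 8.5% for the difference between the sexes, so 4 and 3 of 8 are near its background over both sexes and in females. On the log2 scale the median fold change of the 8 genes over both sexes was -0.19, beside -0.02 for all genes tested. In males these medians were 0.05 and 0.01, and in females -0.65 and -0.02.

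**Figure D1:**
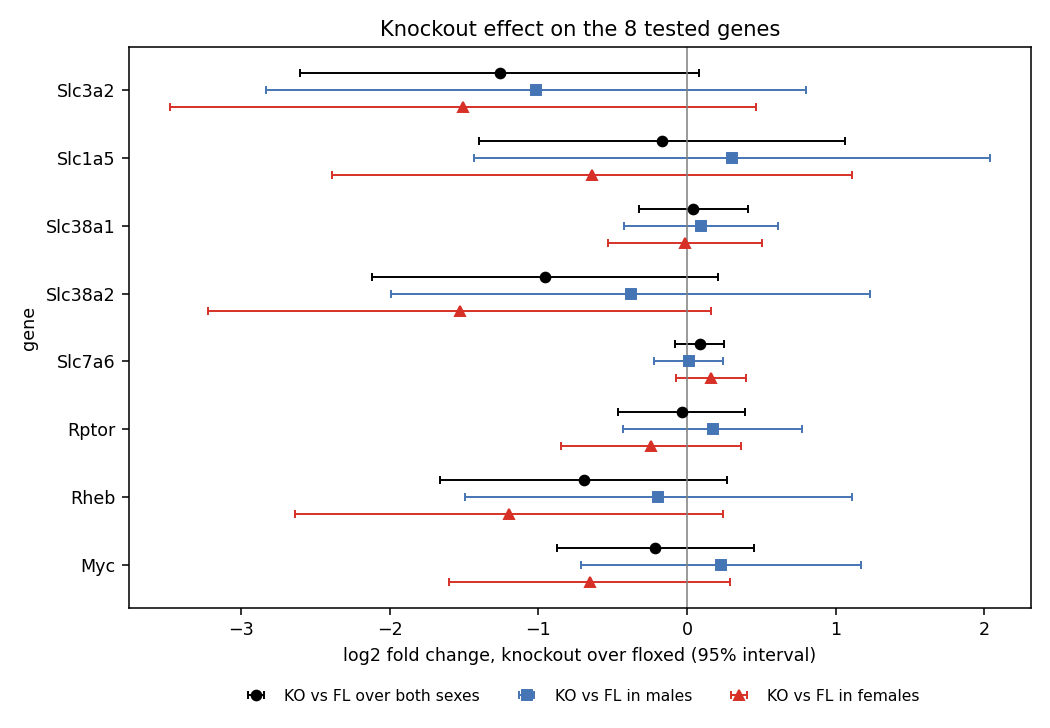
Log2 fold change (x axis) of knockout over floxed cells for the 8 tested genes (y axis), over both sexes (black circles), in males (blue squares) and in females (red triangles); bars are 95% intervals of edgeR's quasi-likelihood fit. Every interval includes 0, and that of Slc7a6 is the narrowest, from -0.08 to 0.25 over both sexes.

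Among the transporters, the leucine exchanger was barely captured. Slc7a5 (chromosome 8, minus strand) had 26 counts in the whole study, too few to test, with 9 in male FL 2 and 12 in male KO 3 and 0 or 1 in each of the other 10 libraries. A count of 0 allows up to 3 counts, which is 0.181 to 0.221 CPM in the libraries where it was at 0, so changes of this gene were not detectable at this depth.

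Slc3a2 (chromosome 19, minus strand), its heavy chain, had 1 to 33 counts per library. In males it was at 2.28, 0.388 and 1.18 CPM in FL 1, 2 and 4 and at 0.881, 0.992 and 0.114 CPM in KO 1, 2 and 3, so the groups overlapped. In females it was at 0.675, 1.13 and 1.22 CPM in FL and at 0.0604, 0.429 and 0.590 CPM in KO, and each knockout library lay below each floxed one. Such a separation in females was seen in 1 of the 8 genes and in 25% of all genes tested. The fold change over both sexes was -1.26 ± 0.61 on the log2 scale (standard error; 95% interval -2.60 to 0.08), and edgeR's quasi-likelihood test gave an adjusted p of 0.271.

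Slc1a5 (chromosome 7, plus strand), a glutamine carrier of activated T cells, varied more between libraries than between genotypes. In males it was at 282, 625 and 190.1 CPM in FL 1, 2 and 4 and at 133, 136 and 1082 CPM in KO 1, 2 and 3. Male KO 3 was the highest library of all, while the other male KO libraries lay below every male FL library. In females it was at 67.3, 128 and 127 CPM in FL and 47.6, 109 and 50.6 CPM in KO, and the groups overlapped. The group means were 366 ± 229 CPM in male FL, 450.3 ± 547 in male KO, 107 ± 34.8 in female FL and 69.1 ± 34.7 in female KO (SD, n = 3 each). The log2 fold change was 0.30 ± 0.78 in males and -0.64 ± 0.79 in females (standard errors), with edgeR adjusted p-values of 0.999 and 0.653. Its value in males turned to -1.43 when male KO 3 was left out, with an edgeR adjusted p of 0.295.

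Floxed females had less Slc1a5 than floxed males in each library, with a log2 fold change of -1.77 ± 0.81 (standard error), an unadjusted p of 0.0527 and an adjusted p of 0.665 by edgeR's quasi-likelihood test. Rptor and Rheb also separated the floxed sexes, with lower values in females, so 3 of the 8 genes did, beside 25% of all genes tested. None of the 3 passed the test.

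The glutamine carriers Slc38a1 and Slc38a2, neighbours on the minus strand of chromosome 15, differed in their spread. Slc38a1 was at 4.48, 4.35 and 4.59 CPM in male FL, 4.59, 4.96 and 4.79 in male KO, 3.31, 5.44 and 4.59 in female FL and 3.74, 5.65 and 3.84 in female KO. The highest male FL library (4.590 CPM) lay just under the lowest male KO library (4.592 CPM), the only such separation of the 8 genes in males, where 14.3% of all genes tested had one. Its log2 fold change over both sexes was 0.04 ± 0.17 (95% interval -0.32 to 0.41, which is 0.799 to 1.33 as a fold change). The interval rests on 49 to 126 counts per library of a poorly captured minus-strand gene. It therefore describes these counts and does not bound a change of the RNA itself.

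Slc38a2, a carrier that many cells induce when amino acids run short, was at 3.59, 2.10 and 2.02 CPM in male FL and 2.64, 2.65 and 0.722 CPM in male KO. In females it was at 1.08, 4.08 and 3.55 CPM in FL and 0.362, 2.22 and 0.443 CPM in KO. Female KO 1 and 3 were the lowest libraries of all, with 6 counts each, and female KO 2 lay within the floxed range. The log2 fold change was -1.53 ± 0.76 in females (95% interval -3.22 to 0.16) and -0.38 ± 0.73 in males, with edgeR adjusted p-values of 0.292 and 0.999.

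Slc7a6 (chromosome 8, plus strand) had the smallest range of uncorrected CPM among the 9 genes, which did not hold once a GC and length trend was removed. It was at 151, 151 and 142 CPM in male FL, 158, 145 and 143 in male KO, 149, 162 and 149 in female FL and 187, 153 and 175 in female KO. Female KO 1 and 3 were its 2 highest libraries, and both pairs of groups overlapped. The fold change over both sexes was 1.06 (95% interval 0.946 to 1.19), with an adjusted p of 0.532 by edgeR's quasi-likelihood test.

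**Figure D2:**
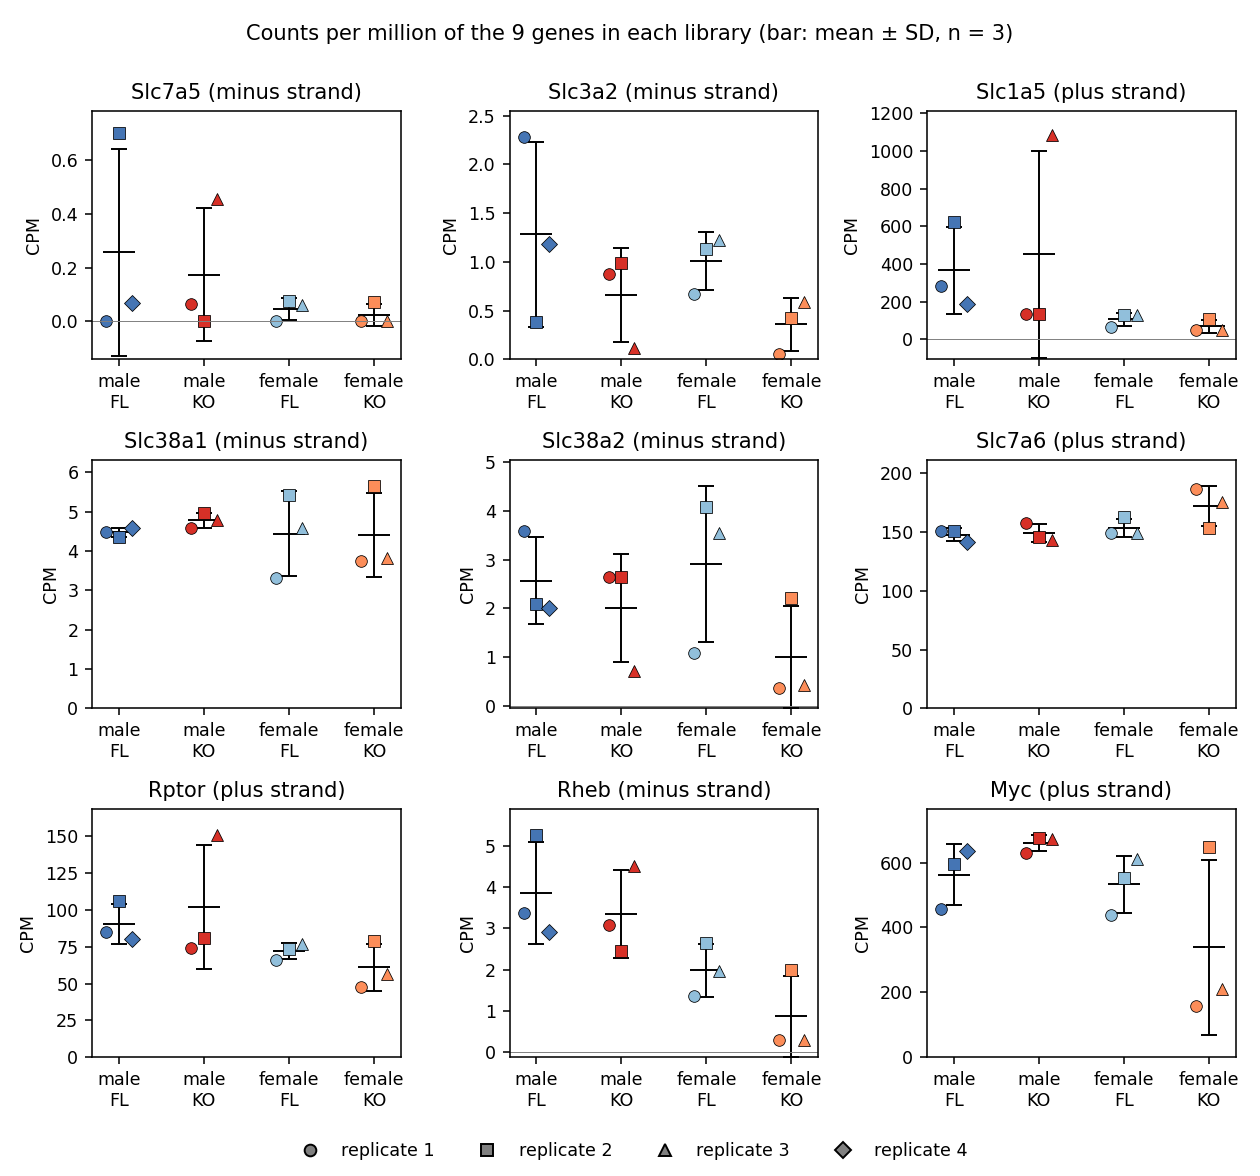
CPM (y axis, scale set per gene) of the 9 genes in each library of the 4 groups (x axis); marker shapes are replicate numbers, and bars are the mean ± SD of 3 libraries, whose lower ends can pass below 0. Myc, Rheb and Slc38a2 are low in female KO 1 and 3 and not in female KO 2, and Slc1a5 is highest in male KO 3, at 1082 CPM.

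Of the mTORC1 components, Rptor (chromosome 11, plus strand), the scaffold that presents substrates to the kinase, was at 85.3, 106 and 80.6 CPM in male FL and 74.4, 81.2 and 151 CPM in male KO. In females it was at 66.1, 73.3 and 77.2 CPM in FL and 47.9, 78.9 and 56.3 CPM in KO. As for Slc1a5, male KO 3 was the highest library and female KO 1 the lowest. The log2 fold change over both sexes was -0.04 ± 0.19 (95% interval -0.46 to 0.39), with an adjusted p of 0.928 by edgeR's quasi-likelihood test. Rptor shares 84 exonic bases with a gene of the opposite strand.

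Rheb (chromosome 5, minus strand), the GTPase that activates the kinase, was at 3.38, 5.28 and 2.92 CPM in male FL and 3.08, 2.45 and 4.52 CPM in male KO. In females it was at 1.35, 2.64 and 1.96 CPM in FL and 0.302, 2.002 and 0.295 CPM in KO, and female KO 1 and 3 had only 5 and 4 counts. These were the lowest values of all libraries, and female KO 2 lay within the floxed range. The log2 fold change was -1.20 ± 0.65 in females (95% interval -2.64 to 0.24) and -0.19 ± 0.59 in males, with edgeR adjusted p-values of 0.318 and 0.999.

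Myc (chromosome 15, plus strand) had the highest mean level of the 4 plus-strand genes. In males it was at 457, 595 and 635 CPM in FL and 630.1, 675 and 672 CPM in KO, and the groups overlapped by 1 library. In females it was at 438, 551 and 611 CPM in FL and 158, 648 and 209.7 CPM in KO. Female KO 1 and 3 lay far below every other library, whereas female KO 2 was above all 3 floxed females. The log2 fold change was 0.23 ± 0.42 in males and -0.66 ± 0.43 in females (95% interval -1.60 to 0.29), and their difference was -0.88 ± 0.60. The adjusted p-values from edgeR's quasi-likelihood test were 0.999, 0.387 and 0.892.

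Calls of Myc, Rheb and Slc38a2 turned on single libraries of the female knockout group. Without female KO 2, edgeR called all 3 lower in females, with log2 fold changes of -1.53 for Myc (adjusted p = 0.000762), -2.69 for Rheb (adjusted p = 0.00329) and -2.82 for Slc38a2 (adjusted p = 0.0229). The 3 were then also called over both sexes, and Myc and Rheb for the difference between the sexes. In that fit 23.7% of all genes were called in females, 22.6% over both sexes and 8.5% for the difference between the sexes. With female KO 1 and 3 left out instead, the female fold changes were 0.28 for Myc, 0.02 for Rheb and -0.39 for Slc38a2. The female knockout group then held 1 library, assumed to vary like the other groups, so the lack of calls among the 8 genes there says nothing about their stability. The number of genes called over both sexes among all genes moved in the same way, from 411 to 2940 without female KO 2 and to 44 without female KO 1 and 3. Foxp3 itself, whose enhancer was deleted, was at 2632 ± 43.8 CPM in female FL and 1111 ± 621 in female KO (SD, n = 3 each). It was at 2496 ± 238 CPM in male FL and 1792 ± 297 in male KO (SD, n = 3 each). In females it ranged from 2582 to 2658 CPM in FL and from 685 to 1824 in KO. In males it ranged from 2227 to 2675 CPM in FL and from 1462 to 2037 in KO. Neither pair of groups overlapped, as for 25% of all genes tested in females and 14.3% in males.

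Promoter sequences from RefSeq (GRCm38.p6, 250 bases before to 50 after the annotated start) were at hand for 5 of the 9 genes: Slc3a2, Slc38a2, Slc7a6, Rptor and Rheb. Rptor, whose lowest values were in female KO 1 and 3 (47.9 and 56.3 CPM), is not shown. Of the 3 shown, Rheb and Slc38a2 are those that were low together in female KO 1 and 3, and Slc7a6 is the gene that was not. Each is written 5′ to 3′ on the strand of its gene, with capitals marking the E-box CACGTG, to which MYC and MAX bind.
Rheb, chr5:24842312-24842611, minus strand: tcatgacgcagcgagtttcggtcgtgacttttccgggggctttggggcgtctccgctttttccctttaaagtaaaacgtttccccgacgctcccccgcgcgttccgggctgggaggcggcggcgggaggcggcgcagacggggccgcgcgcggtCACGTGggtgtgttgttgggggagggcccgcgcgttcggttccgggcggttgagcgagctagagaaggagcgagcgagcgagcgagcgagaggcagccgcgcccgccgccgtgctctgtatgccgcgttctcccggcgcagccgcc
Slc38a2, chr15:96699679-96699978, minus strand: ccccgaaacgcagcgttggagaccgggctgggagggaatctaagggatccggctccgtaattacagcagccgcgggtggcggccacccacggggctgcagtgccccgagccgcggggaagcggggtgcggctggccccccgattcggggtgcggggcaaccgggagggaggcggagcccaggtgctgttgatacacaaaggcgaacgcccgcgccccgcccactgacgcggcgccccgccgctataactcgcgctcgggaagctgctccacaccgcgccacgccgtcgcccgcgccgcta
Slc7a6, chr8:106168604-106168903, plus strand: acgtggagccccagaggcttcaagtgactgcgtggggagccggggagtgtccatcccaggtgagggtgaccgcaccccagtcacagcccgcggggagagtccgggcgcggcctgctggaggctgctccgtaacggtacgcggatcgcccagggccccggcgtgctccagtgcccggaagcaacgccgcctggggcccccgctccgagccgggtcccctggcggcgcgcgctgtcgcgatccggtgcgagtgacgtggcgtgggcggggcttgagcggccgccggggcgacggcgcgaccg

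Rheb had 1 E-box match, 96 bases upstream of the start (position -96), and the windows of the other 4 genes had none. For Slc7a6 the search also covered the window of another annotated start (chr8:106168671-106168970), which is not printed here. On either strand the E-box occurred in 7.15% of all 32851 promoter windows. The amino acid response element TGATGNAA, bound by ATF4, was found in none of the 5 genes' windows, and in 3.97% of all windows. Sequence outside the windows, such as the rest of each gene, was not searched, so either motif may lie there.

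Levels of the 4 plus-strand genes could be compared roughly, per kilobase of exon. The length merged the exons of all annotated transcripts of a gene, which can exceed that of the transcript present, and no GC trend was removed. Myc averaged 193 CPM per kb over the 12 libraries, Slc1a5 59.5, Slc7a6 34.0 and Rptor 6.05. Myc was above Slc1a5 in 11 of 12 libraries, the exception being male KO 3, and Slc7a6 was above Rptor in 12 of 12. Slc1a5 was above Slc7a6 in only 5 of 12, so the order of these carriers was not the same in all libraries.

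Set against the 5081 genes with a mean log2 CPM of at least 4, the same 4 genes spanned nearly the whole range of variability between libraries. The highest library held 22.8 times the Slc1a5 level of the lowest, and 97.6% of the genes had a smaller range, whose median was 2.03-fold. Myc ranged 4.28-fold and Rptor 3.15-fold, with 78.9% and 71.0% of genes below them. Slc7a6 ranged 1.32-fold, with 3.86% of genes below it. After a trend on GC content and length was removed from each library, the ranges were 9.90-fold for Slc1a5, 2.78-fold for Myc, 1.51-fold for Rptor and 1.90-fold for Slc7a6.

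**Figure D3:**
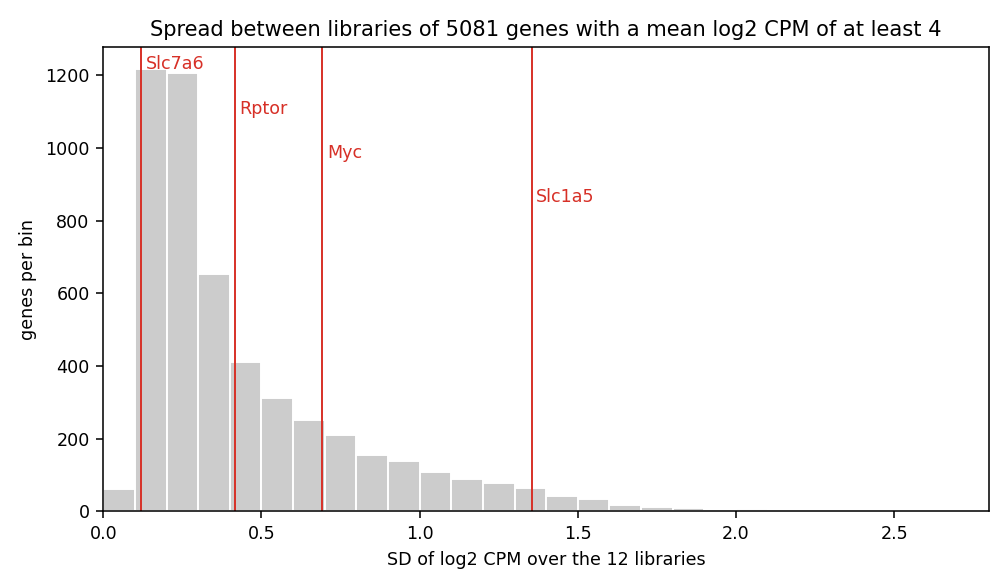
Number of genes (y axis) by the SD of their log2 CPM over the 12 libraries (x axis) for 5081 genes with a mean log2 CPM of at least 4, with the 4 plus-strand genes marked by red lines. Slc7a6 lies near the low end and Slc1a5 in the upper tail.

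The libraries that gave these ranges were shared. Ordered by the first principal component, Slc1a5 and Rptor went from their highest values in male KO 3 and male FL 2 to their lowest in female KO 1 and 3, Myc was level in most libraries and low in those last 2, and Slc7a6 was highest there. The relation between GC content and the deviation of genes from their means, taken across genes within a library, was given by Spearman's rho. It was -0.40 in female KO 1, -0.31 in female KO 3, 0.41 in male KO 3 and 0.26 in male FL 2, but it was largest in male FL 4 (0.51), where Slc1a5 was at 190.1 CPM and the component score was -25.8. In the other 7 libraries it lay between -0.13 and 0.24. With the GC and length trend removed, edgeR again called 0 of the 8 genes in every comparison.

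**Figure D4:**
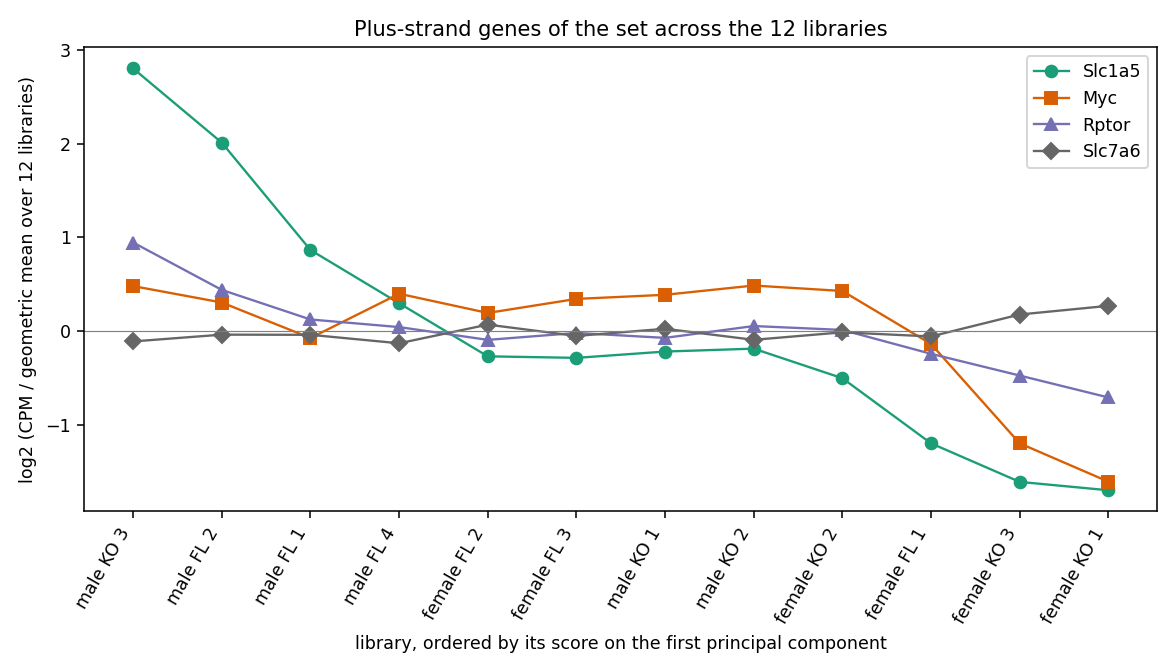
Log2 ratio of the CPM of the 4 plus-strand genes to their geometric mean over 12 libraries (y axis), with libraries ordered by their score on the first principal component (x axis). Slc1a5 falls from left to right, Myc drops in female KO 3 and female KO 1, and Slc7a6 stays close to 0; lines join points only to guide the eye.

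The genes most like each of the 4 were found by Pearson's r of log2 CPM over the 12 libraries, which share depth and base composition. For Slc1a5 they were Wrnip1 (r = 0.998), Trim27 (0.996) and Vac14 (0.995), and for Rptor they were Zmiz1 (0.983), Stard7 (0.983) and Notch2 (0.980). For Myc they were Gipc1 (0.993), Dnaja3 (0.992) and Mettl26 (0.991), and for Slc7a6 they were Gm7964 (0.982), Bbs9 (0.973) and Anxa6 (0.968). All of these but Anxa6 lie on the plus strand. None of the 12 was called over both sexes by edgeR, with adjusted p-values of 0.324 to 0.976.

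The other genes of the pathway were read from lists of which 151 genes could be tested outside the cell cycle list. Of these 5 rose in knockout cells over both sexes and 0 fell, beside the 2.68% and 0.637% of all genes given above, and 39 had an unadjusted p under 0.05, beside the 20.2% of all genes given above. Among 18 other amino acid transporters 1 rose, Slc43a3, an SLC43 family member that is known to carry purine nucleobases. It was at 44.4, 62.4 and 70.2 CPM in male FL, 105, 101 and 104 in male KO, 59.5, 48.7 and 57.3 in female FL and 87.4, 94.5 and 90.2 in female KO, with no overlap in either sex. Its log2 fold change was 0.76 ± 0.12, with an adjusted p of 0.00912 by edgeR's quasi-likelihood test, and without female KO 1 and 3 it was 0.79 (adjusted p = 0.0742). The glutamate carrier Slc1a2 had the next smallest p, with a log2 fold change of 1.27 ± 0.42 (edgeR adjusted p = 0.125). It was near the limit of detection, with 3 or 4 counts in each male FL library and 0.209 to 5.09 CPM over all libraries.

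Of the lists nearest to mTORC1, edgeR called 0 genes in each. The counts of the other tools below stand beside the 9.1% (DESeq2) and 37.5% (voom) of all genes that they called over both sexes, and the counts at an unadjusted p under 0.05 beside 20.2%. Among 8 genes of the kinase complex and its TSC brake, 2 had an unadjusted p under 0.05, the median log2 fold change was -0.17, DESeq2 called 0 and voom 3. The kinase itself, Mtor, was at 244, 170.4 and 249.5 CPM in male FL, 169.6, 186 and 229 in male KO, 122, 186 and 199 in female FL and 50.1, 137 and 51.2 in female KO. Like Myc it was lowest in female KO 1 and 3, and its log2 fold change was -0.64 ± 0.26 (edgeR adjusted p = 0.212), with Tti2, which helps to assemble such kinases, at 0.21 ± 0.08 (adjusted p = 0.184). Among the 9 Rag GTPases and Ragulator subunits, which hold mTORC1 at the lysosome, 2 had an unadjusted p under 0.05, Rragb at 0.52 ± 0.14 and Lamtor5 at 0.30 ± 0.10 (edgeR adjusted p-values of 0.0759 and 0.118). DESeq2 called 2 of these 9 higher, and voom called 3 higher and 2 lower.

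Among 16 genes of the GATOR, KICSTOR and folliculin complexes and the amino acid sensors, 4 had an unadjusted p under 0.05, and DESeq2 called 2 higher. Castor2, an arginine sensor homologue, had a log2 fold change of -0.73 ± 0.25, and Sec13, a GATOR subunit, 0.34 ± 0.12. Among 20 inputs from PI3K, AKT and AMPK, 7 had an unadjusted p under 0.05 and DESeq2 called 1 lower. Prkag2, an AMPK subunit, had a log2 fold change of -0.53 ± 0.16, and Akt2, a kinase that restrains TSC, -0.56 ± 0.17. Among 19 outputs of mTORC1, 3 had an unadjusted p under 0.05 and DESeq2 called 2 higher. The translation factors Eif4a1 and Eif4e had log2 fold changes of 0.29 ± 0.08 and 0.32 ± 0.10, while the median of the list was -0.33. The voom fit called 2 higher and 3 lower, 4 higher and 7 lower, and 3 higher and 9 lower in these lists, in this order. The edgeR adjusted p-values of the 6 genes named ran from 0.0834 to 0.161. Of these, Prkag2, Sec13 and Eif4a1 lie on the minus strand, with 23 to 47, 178 to 382 and 6916 to 15369 counts per library.

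**Figure D5:**
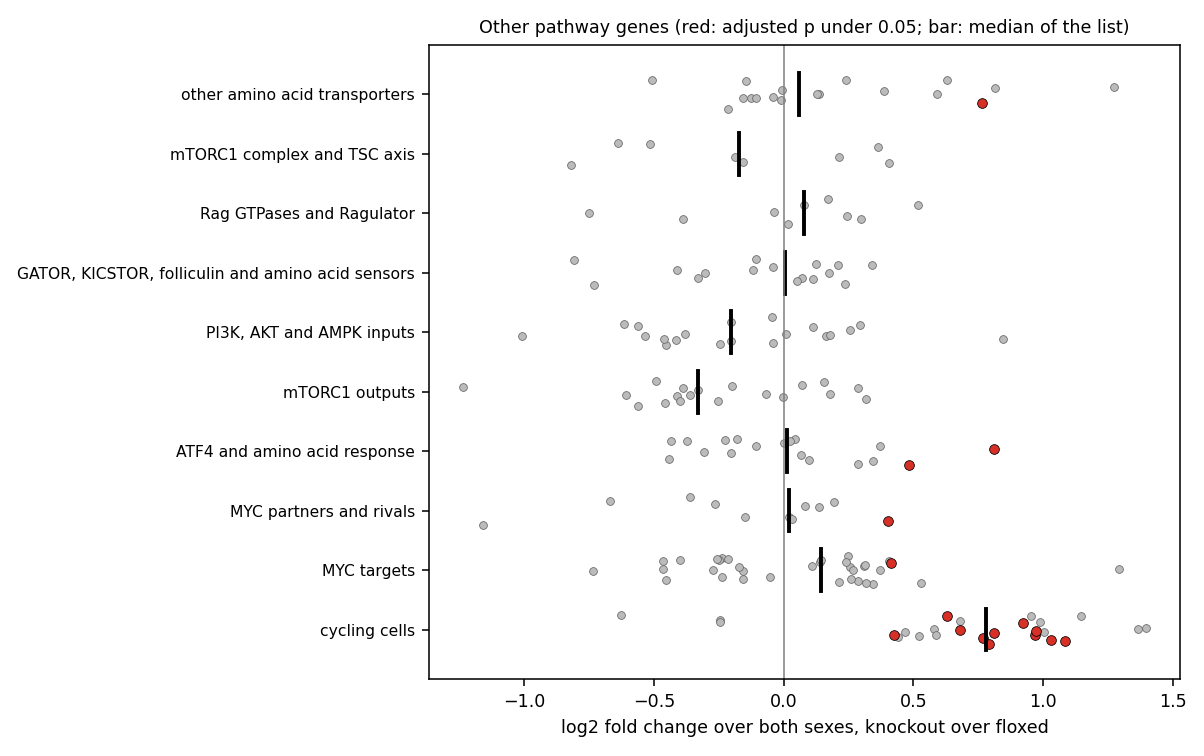
Log2 fold change of knockout over floxed cells over both sexes (x axis) of the tested genes in each pathway list (y axis); red points have an edgeR adjusted p under 0.05, and black bars are list medians. Red points are few outside the cell cycle list, where 11 of 26 genes are red.

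A further list held ATF4, the transcription factor made when amino acids are short, with other genes of the amino acid response. Of its 18 tested genes 2 rose and 0 fell, beside 2.68% and 0.637% of all genes. The 2 that rose are both enzymes of serine synthesis. Psat1 was at 10.004, 13.0 and 13.5 CPM in male FL, 20.6, 18.9 and 15.95 in male KO, 13.4, 9.44 and 10.8 in female FL and 27.3, 18.5 and 22.4 in female KO, without overlap in either sex. Phgdh, likewise without overlap, was at 42.4, 56.0 and 50.6 CPM in male FL, 68.9, 69.4 and 65.7 in male KO, 57.5, 46.2 and 50.3 in female FL and 70.3, 67.3 and 81.9 in female KO. Their log2 fold changes were 0.81 ± 0.15 and 0.48 ± 0.10 (edgeR adjusted p-values of 0.0200 and 0.0340). The call of Psat1 was lost in 10 and that of Phgdh in 17 of 23 alternative analyses. Both lie on the minus strand. The list's median was 0.01.

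Around Myc, 1 of 11 partners and rivals rose, beside 2.68% of all genes. It was Pvt1, the noncoding gene beside Myc, at 0.40 ± 0.09 (edgeR adjusted p = 0.0468), a call lost in 17 of 23 alternatives. Mnt, a repressor that competes for MAX, had a log2 fold change of -0.67 ± 0.24 (adjusted p = 0.156). Of 34 targets of MYC 1 rose and 0 fell, beside 2.68% and 0.637% of all genes, with a median of 0.14. Among these 34, 12 had an unadjusted p under 0.05, beside 20.2% of all genes. DESeq2 called 6 of the 34 higher and 0 lower, and voom 12 higher and 7 lower. These tools called 9.1% and 37.5% of all genes over both sexes. The target that rose was Ldha, lactate dehydrogenase, at 2162 ± 306 CPM in male FL, 2735 ± 224 in male KO, 2134 ± 42.8 in female FL and 2995 ± 379 in female KO (SD, n = 3 each), a log2 fold change of 0.41 ± 0.09 (edgeR adjusted p = 0.0343), a call lost in 13 of 23 alternatives. Dkc1, of ribosomal RNA modification, had 0.35 ± 0.08 (adjusted p = 0.0540).

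Of 26 tested genes of cycling cells, 11 were called higher in knockout cells and 0 lower, beside 2.68% and 0.637% of all genes. The median log2 fold change of the list was 0.78. Without 1 library in turn, 4 to 15 of the 26 were called higher and 0 or 1 lower, with medians of 0.71 to 0.87. In those fits 83 to 1075 of all genes were called higher. Rrm1, which makes deoxynucleotides, rose by 0.77 ± 0.10, the replication helicase subunit Mcm5 by 0.68 ± 0.10, the mitotic motor Cenpe by 1.03 ± 0.16 and the chromatin protein Hmgb2 by 0.81 ± 0.13, with edgeR adjusted p-values of 0.00477 to 0.00930. With the myeloid marker level as a covariate, 10 of the 26 were called higher, beside 226 of all 12411 genes, with a median of 0.65. In that fit 1 of the 18 other transporters (Slc43a3) and 1 of the 18 genes of the ATF4 list (Psat1) were called. No gene of the other 7 lists was called, and Phgdh, Pvt1 and Ldha lost their calls (adjusted p-values of 0.0861, 0.108 and 0.0755 by edgeR). Without female KO 1 and 3, when 1 female knockout library was left and 44 of all genes were called, edgeR called 0 genes of the 10 lists, and the cell cycle list's median was 0.79.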

How the data were processed

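RNA was counted per gene in 12 libraries. The authors deposited a table of unnormalized read counts with 1 row per gene symbol. The submitters' processing notes name HTSeq 0.6.1p1, CASAVA, the STAR versions 2.3.0e and 2.5.2b, and the mouse build mm9. The role of each STAR version and the strand setting are not given in the sources used here. HTSeq's summary entries were left out, among them reads outside features (44.3 to 46.9% of a library).

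Strand, length and GC content were matched by symbol to GENCODE release M21 for 54510 of 55453 genes, and no coordinates were taken from it. Low-count genes were dropped with filterByExpr, and TMM scaled the libraries (edgeR 4.0.16, R 4.3.3). A robust quasi-likelihood model with 1 mean per group was fitted to all 12 libraries, with Benjamini-Hochberg adjustment and a threshold of 0.05. CPM are counts divided by the TMM-scaled library size, on the usual scale, and intervals are 95% intervals. The code was tested on simulated data.

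All 9 genes were named throughout. From each list the genes called over both sexes were named, at most the 4 with the smallest p in each direction, or the 2 genes with the smallest p where fewer than 2 were called. Likeness took the 3 genes with the highest r among those with a mean log2 CPM of at least 4 (prior count 2). The genes and lists were chosen with earlier results of these data known. Alternatives were RLE scaling, DESeq2 1.42.0, limma-voom (limma 3.58.1), other filters, a replicate block, single-sex and single-strand fits, a GC and length trend, a myeloid covariate and left-out libraries. No 2 libraries of a group agreed within sampling noise.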

Additional observations from a re-analysis of the deposited data

How the results depend on the processing

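The depth of the minus-strand genes, 1 to 33 counts per library for Slc3a2 and 4 to 119 for Rheb, limits what could be detected, and 3 libraries a group limit the rest. Of the values of the 8 genes under the alternatives, 18 of 180 turned in sign over both sexes, 19 of 188 in males, 16 of 187 in females, 12 of 180 for the difference between the sexes and 14 of 180 between the floxed groups. Whether the replicate numbers pair the libraries could not be told, because deviations from a group mean of 3 libraries depend on each other. Deviations of same-numbered libraries correlated at 0.57 and -0.79 in males and at 0.52, 0.53 and -0.66 in females. For different numbers the values ran from -0.51 to 0.82 in males and from -0.73 to 0.83 in females. With the replicate block, 0 of the 8 genes were called in any comparison and 209 in place of 411 of all genes over both sexes, and the log2 fold changes that turned were Slc1a5 in males (-0.72), Slc7a6 in males (-0.0107), Rptor in males (-0.0546), Slc1a5 between the sexes (0.19) and Myc between the floxed groups (0.0713). Without 1 library in turn, 0 to 3 of the 8 were called over both sexes, 0 to 3 in females and 0 to 2 for the difference between the sexes, and no library other than female KO 2 gave a call.

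The limma-voom fit called 4 over both sexes (Myc, Rheb, Slc1a5 and Slc38a2), 3 in females (Myc, Rheb and Slc38a2) and 2 between the sexes (Myc and Rheb). It turned Slc38a1 over both sexes (-0.0754), Slc1a5 in males (-0.91), Rptor in males (-0.0931), and between the floxed groups Slc38a1 (0.0548) and Myc (0.0881). With female KO 1 and 3 left out the values were, over both sexes, 0.16 for Slc1a5, 0.15 for Rptor and 0.25 for Myc, in females 0.0212 for Slc1a5, 0.35 for Slc38a1, 0.13 for Rptor, 0.0166 for Rheb and 0.28 for Myc, and between the sexes 0.26 for Slc38a1, -0.00597 for Slc7a6, 0.21 for Rheb and 0.0600 for Myc. With the GC and length trend removed they were 0.0334 for Slc1a5 and 0.31 for Rptor over both sexes, 0.22 for Slc38a1 and 0.39 for Rptor in females, 0.0787 for Slc38a1 and 0.15 for Rptor between the sexes, and 0.0838 for Slc38a1 and 0.12 for Myc between the floxed groups. Leaving out male FL 4 and male KO 2 gave Rptor 0.00889 over both sexes, Slc38a1 0.00919 in females, Slc3a2 0.0305 between the sexes, and Slc38a1 0.0218 and Myc 0.0333 between the floxed groups. The myeloid covariate gave Slc1a5 0.21 and Rptor 0.0293 over both sexes and Slc38a1 0.00975 in females. The single-strand fit gave Slc7a6 -0.00979 in males and Slc38a1 0.0517 in females, and the filter of 5 CPM in 3 libraries gave Slc7a6 -0.0170 in males. Apart from fewer libraries in the fits that leave some out, the cause was not tested.

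Leaving out 1 library in turn also turned the sign of several values, given here as lowest to highest. Over both sexes they were -1.02 to 0.15 for Slc1a5, -0.0570 to 0.11 for Slc38a1 and -0.22 to 0.0567 for Rptor. In males they were -1.43 to 0.94 for Slc1a5, -0.66 to 0.0548 for Slc38a2, -0.0345 to 0.0501 for Slc7a6, -0.21 to 0.36 for Rptor and -0.46 to 0.10 for Rheb. In females they were -0.22 to 0.14 for Slc38a1. Between the sexes they were -1.20 to 0.0425 for Slc3a2, -1.58 to 0.81 for Slc1a5 and -0.32 to 0.0553 for Slc38a1. Between the floxed groups they were -0.77 to 0.35 for Slc3a2, -0.17 to 0.15 for Slc38a1, -0.14 to 0.55 for Slc38a2 and -0.20 to 0.0319 for Myc. Of the list genes called over both sexes, Psat1 lost its call in 10 of 23 alternatives, Phgdh in 17, Pvt1 in 17 and Ldha in 13, while Slc43a3 and each of Rrm1, Mcm5, Cenpe and Hmgb2 lost it in 1, without female KO 1 and 3 together. All list genes named kept their direction in every alternative run. Among all genes tested, the number called over both sexes, 411 in edgeR, was 1129 in DESeq2, 4656 in voom, 250 with the myeloid covariate, 785 without male KO 3 and 98 to 2940 without 1 library in turn, and in females, where edgeR called 25, it was 706 in DESeq2, 5462 in voom, 94 without a filter, 50 with the filter of 5 CPM, 8 with the GC trend removed and 0 to 3089 without 1 library in turn.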
